A study of Mus musculus with 6 samples.

Results

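The globin genes are the subunit genes of haemoglobin, and 6 of them were followed here: the embryonic alpha-type gene Hba-x, the adult alpha genes Hba-a1 and Hba-a2, the embryonic beta-type genes Hbb-y and Hbb-bh1, and the adult beta gene Hbb-b1. They were chosen as every probe set whose platform symbol includes one of these names, which gave 13 of the 45037 non-control probe sets on the array. Of the 13, 4 list several symbols: 3 list both adult alpha genes, and 1 lists Hbb-b1 with Hbb-b2, Hbb-bs and Hbb-bt. The 7 embryonic probe sets are 1 for Hba-x, 3 for Hbb-y and 3 for Hbb-bh1. The genes were selected on their doxycycline differences, that is, on signals of treated against untreated arrays that were already known, so those differences are described here with no test.

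The arrays were hybridised with total RNA of Ba/F3 cells, an interleukin-3-dependent mouse line of BALB/c origin that the labels class as leukemia cells. They were grown with supernatant of WEHI-3 cells, a usual source of interleukin-3. All cells carried PAX5-KIDINS220, a fusion of the B-lineage transcription factor PAX5 and the membrane scaffold KIDINS220, under a retroviral Tet-on system, so the untreated cells carried the construct too. The groups were 3 untreated samples, Dox(-), and 3 treated ones, Dox(+), given 500 ng/mL doxycycline, with RNA taken at 24 h. The purpose stated by the submitters was to find pathways that the fusion affects. No array of cells without the construct was used here, so doxycycline itself and the fusion cannot be told apart. The labels state neither whether the line was a clone nor whether the cultures were separate. Each p-value below therefore measures only how these arrays scatter, and that scatter may be technical.

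The array codes in the titles have 2 beginnings, and the arrays are taken as 2 sets accordingly. EA15 holds 1 untreated and 1 treated array, so its ratio has no replicate. EA20 holds 2 of each, and there the treated arrays carry the earlier codes, so code order and treatment cannot be told apart. The labels do not say what the codes stand for. Median signal per array lay between 56.3 and 65.6, and the 3'/5' ratio of the Gapdh control lay between 0.637 and 0.688. One probe set for Pax5, 1421765_at, read 3.76 to 20.3 on the untreated and 94.2 to 119 on the treated arrays, with no overlap. The other Pax5 probe set, 1454401_at, overlapped, at 23.9 to 92.0 untreated and 48.1 to 133 treated. Of the Ba/F3 markers, 10 of 11 were measured. Of the interleukin-3 receptor subunit genes, Csf2rb and Csf2rb2 read at least 4906 on each array and Il3ra read 296 to 898. Kit read at most 68.1, and the pro-B genes Ebf1, Cd79a, Vpreb1 and Igll1 read at most 118. Cd79b, another B-lineage gene, read 467 to 777.

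In mice, haemoglobin of the yolk sac's primitive red cells uses embryonic alpha-type and beta-type chains, and definitive red cells of the fetal liver and bone marrow use adult ones. The genes lie in a pair of clusters, alpha on chromosome 11 and beta on chromosome 7, each driven by distant enhancers that bind GATA1, TAL1 and their partners. GATA factors read GATA motifs, KLF1 reads CACCC boxes, NF-Y reads the CCAAT box, and the repressors TR2 and TR4 (Nr2c1 and Nr2c2) bind direct repeats of GGTCA-like half-sites in embryonic beta-type promoters. RefSeq orders the alpha cluster as Hba-x, Hba-a1, Hbq1b, Hba-a2 and Hbq1a, next to Nprl3, Mpg, Rhbdf1, Snrnp25 and Il9r. The beta cluster runs from Hbb-bt through Hbb-bs, Hbb-bh2 and Hbb-bh1 to Hbb-y. The reference strain carries the adult beta pair Hbb-bs and Hbb-bt, whereas BALB/c mice carry Hbb-b1 and Hbb-b2.

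The 200 bases before the start of 3 globin genes are shown because these genes behave differently below: an embryonic alpha-type gene, an adult alpha gene and an embryonic beta-type gene. Sequences are from RefSeq, build GRCm38.p6, and read 5' to 3' on the gene's strand. Capitals mark matches on either strand to the CACCC box, the GATAA motif, the CCAAT box and the GGTCA half-site. Hba-x is at chr11:32276400-32276599, plus strand. Hba-a1 is at chr11:32283472-32283671, plus strand. Hbb-y is at chr7:103853208-103853407, minus strand.
Hba-x: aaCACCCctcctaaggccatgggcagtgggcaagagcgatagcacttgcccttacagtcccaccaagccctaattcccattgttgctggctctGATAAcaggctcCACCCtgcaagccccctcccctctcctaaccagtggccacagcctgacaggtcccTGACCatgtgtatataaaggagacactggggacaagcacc
Hba-a1: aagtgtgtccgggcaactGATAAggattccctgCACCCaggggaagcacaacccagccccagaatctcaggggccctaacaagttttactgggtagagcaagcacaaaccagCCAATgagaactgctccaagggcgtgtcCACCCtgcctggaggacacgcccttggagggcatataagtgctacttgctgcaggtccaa
Hbb-y: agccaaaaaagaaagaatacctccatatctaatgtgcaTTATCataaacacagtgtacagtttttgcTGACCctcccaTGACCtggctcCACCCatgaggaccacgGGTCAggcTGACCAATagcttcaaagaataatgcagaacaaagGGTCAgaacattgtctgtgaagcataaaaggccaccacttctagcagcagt
Each of the 3 windows holds GATAA once, on the minus strand in Hbb-y, and CACCC at least once, with 2 matches in Hba-x and in Hba-a1. Hba-a1 and Hbb-y hold CCAAT and Hba-x does not. GGTCA was found 5 times in Hbb-y, where 1 match overlaps the CCAAT box, once in Hba-x and 0 times in Hba-a1. Among 32851 promoter windows of that length, 45.5% hold CACCC, 18.1% GATAA, 29.3% CCAAT and 29.4% GGTCA, so a single match is common. The window of Hba-a2, at chr11:32296292-32296491, is nearly that of Hba-a1, with 197 identical bases in an alignment of 203. Transcripts of this adult pair are also near-identical, and the probe sets that list both cannot tell them apart. A match is a run of letters and not a measured binding site. The table used here has no window for Hbb-b1 or Hbb-bh1.

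With doxycycline, the bright adult alpha probe sets were lower and the adult beta and Hbb-y probe sets were higher, in both array sets. Hbb-bh1 and Hba-x did not keep one direction. Differences are on the scale of log2(signal + 16), which understates those of dim probe sets, and folds are taken on that scale. The signals have arbitrary units, and probe sets are not compared with each other in level. As these are bulk samples, fewer cells that express a gene and less RNA per cell cannot be told apart.

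Among the adult alpha probe sets, 1452757_s_at, which lists Hba-a1 and Hba-a2, read 9476 without and 4400 with doxycycline in EA15. In EA20 it read 28736 and 25732 without and 19479 and 22890 with doxycycline. Within each set the treated arrays were lower, but over all 6 arrays the groups overlapped, because every EA20 array stood above both EA15 arrays. The log2 difference was -1.10 in EA15, a signal 2.15-fold lower, and -0.36 in EA20, 1.29-fold lower. With the array set as a block it was -0.61 (SE 0.14, 6 arrays).

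The other probe sets that list both adult alpha genes followed the same order. 1417714_x_at read 4138 without and 1734 with doxycycline in EA15, and 20143 and 20601 without and 11859 and 13321 with doxycycline in EA20. Its log2 differences were -1.25 in EA15, -0.70 in EA20 and -0.88 with the block (SE 0.11). 1428361_x_at read 4232 without and 2082 with doxycycline in EA15, and 21793 and 19759 without and 13321 and 15429 with doxycycline in EA20. Treated arrays were again lower in each set, with log2 differences of -1.02, -0.53 and, with the block, -0.69 (SE 0.11). The suffixes _s_at, _x_at and _a_at mark probe sets that can share sequence with related transcripts, so these 3 are not separate evidence.

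The probe sets that list a single adult alpha gene gave smaller or unordered differences. 1427219_at, listed for Hba-a2, read 338 without and 286 with doxycycline in EA15, and 436 and 477 without and 416 and 470 with doxycycline in EA20. The EA20 arrays overlapped, and the log2 difference with the block was -0.11 (SE 0.11). 1453574_at, listed for Hba-a1, read 2.92 to 19.2 over the 6 arrays, and its mean signal was at percentile 9.81 of all probe sets. It is too dim to give a level for Hba-a1, and the shares of Hba-a1 and Hba-a2 in the bright signal are unknown.

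Hba-x, the embryonic alpha-type chain, was measured by 1448716_at alone. It read 9.10 without and 20.9 with doxycycline in EA15. In EA20 it read 585 and 735 without and 419 and 465 with doxycycline. In EA20 both treated arrays were below both untreated ones, and in EA15 both arrays were dim. The log2 difference was 0.56 in EA15, -0.55 in EA20 and -0.18 with the block (SE 0.24), so the sets gave opposite signs.

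Turning to the beta cluster, the adult beta probe set 1417184_s_at, which lists Hbb-b1, Hbb-b2, Hbb-bs and Hbb-bt, read 9494 without and 20942 with doxycycline in EA15. In EA20 it read 5628 and 5829 without and 6823 and 7369 with doxycycline. Treated arrays were higher within each set, while over all 6 arrays the untreated EA15 array was above both treated EA20 arrays. The log2 difference was 1.14 in EA15, 2.20-fold, and 0.31 in EA20, 1.24-fold, or 0.58 with the block (SE 0.14). Relative to the bright adult alpha probe set 1452757_s_at, the adult beta probe set was thus displaced upward with doxycycline by 2.24 log2 units in EA15 and by 0.67 in EA20.

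Hbb-y, the embryonic beta-type gene at the end of its cluster, was measured by 3 probe sets. 1436717_x_at read 1979 without and 11943 with doxycycline in EA15, and 5460 and 7010 without and 9207 and 9577 with doxycycline in EA20. 1436823_x_at read 1924 and 11782 in EA15, and 5999 and 7396 without and 9160 and 10240 with doxycycline in EA20. 1450621_a_at read 744 and 4603 in EA15, and 1909 and 2017 without and 3131 and 3616 with doxycycline in EA20. In all 3 probe sets each treated array was above each untreated one. The untreated EA15 array was the lowest of the 6, and the treated EA15 array the highest.

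The sizes differed between the sets for each Hbb-y probe set. In EA15 the treated array was 5.99-fold, 6.08-fold and 6.08-fold above the untreated one, in the order just given. In EA20 the treated mean was 1.52-fold, 1.45-fold and 1.71-fold higher. With the block, the log2 differences were 1.26 (SE 0.32), 1.23 (SE 0.33) and 1.38 (SE 0.29). Whether the sizes differ between the sets was not tested, as EA15 has 1 array of each kind.

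**Figure D1:**
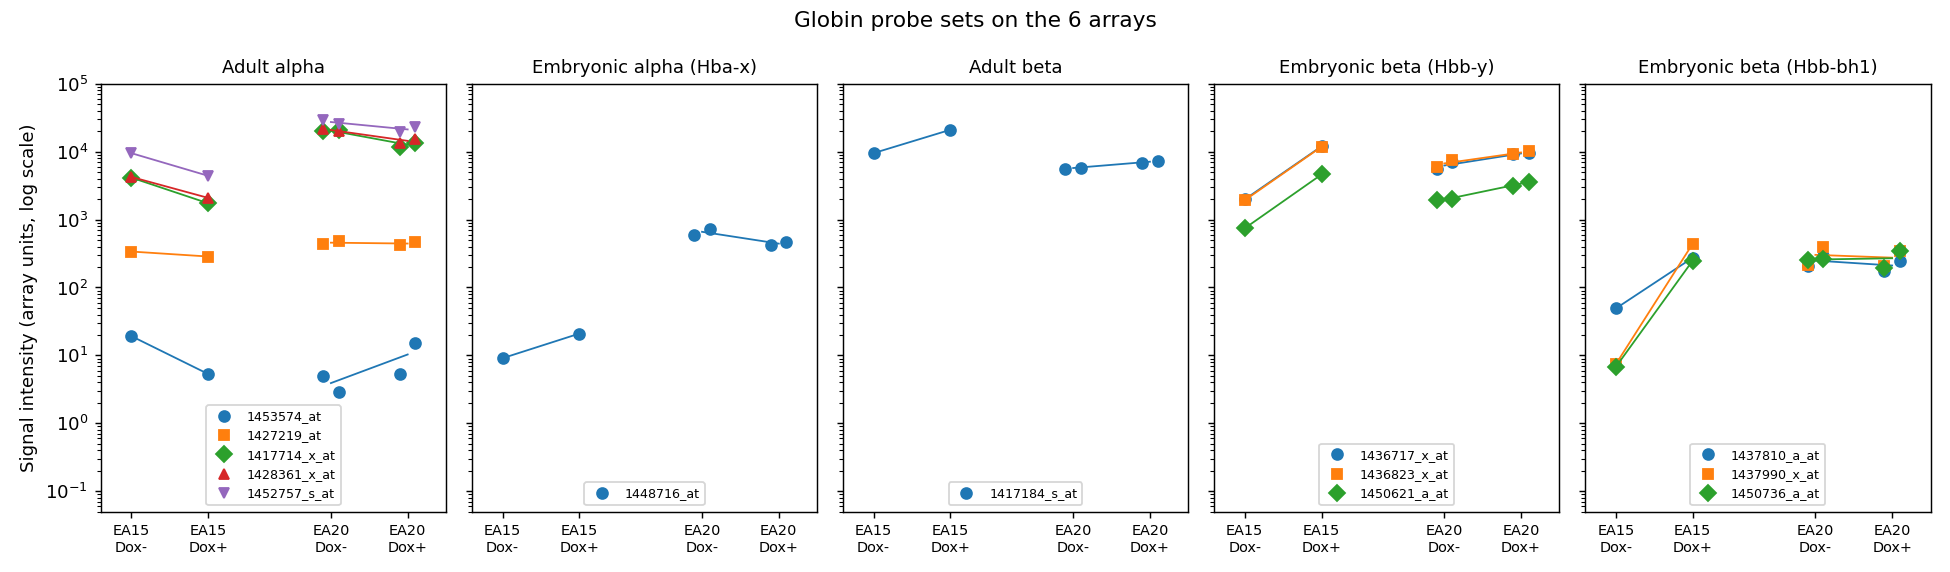
Signal intensity of the 13 globin probe sets on each array (log axis, array units), by array set and treatment, with points for single arrays and lines joining the means of a set. Adult alpha signals are higher on all EA20 than on all EA15 arrays except for the dim 1453574_at, and the 3 Hbb-y probe sets are higher on each treated array than on each untreated one.

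Hbb-bh1, the other embryonic beta-type gene, had a difference with doxycycline in EA15 and none of one sign in EA20. 1437990_x_at read 7.45 without and 439 with doxycycline in EA15, and 215 and 390 without and 210 and 340 with doxycycline in EA20. 1450736_a_at read 6.79 and 248 in EA15, and 254 and 262 without and 196 and 342 with doxycycline in EA20. 1437810_a_at read 49.2 and 274 in EA15, and 209 and 289 without and 176 and 245 with doxycycline in EA20. In all 3, the untreated EA15 array stood below the other 5 arrays, and the EA20 groups overlapped. The log2 differences in EA15 were 4.28, 3.53 and 2.15, and in EA20 they were -0.11, 0.011 and -0.23. With the block they were 1.35 (SE 0.73), 1.19 (SE 0.59) and 0.57 (SE 0.42), so these values rest on the untreated EA15 array.

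Ranked over all 45037 probe sets by the EA15 difference, from the largest upward, Hbb-bh1 probe sets were at ranks 1, 2 and 26 and Hbb-y probe sets at ranks 4, 5 and 6. In EA20 the highest of these was the Hbb-y probe set 1450621_a_at, at rank 1821. The adult beta probe set was at rank 1478 in EA15 and 7850 in EA20. These ranks are of a ratio of single arrays in EA15 and of 2 against 2 in EA20, and they describe how the genes came to be chosen.

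**Figure D2:**
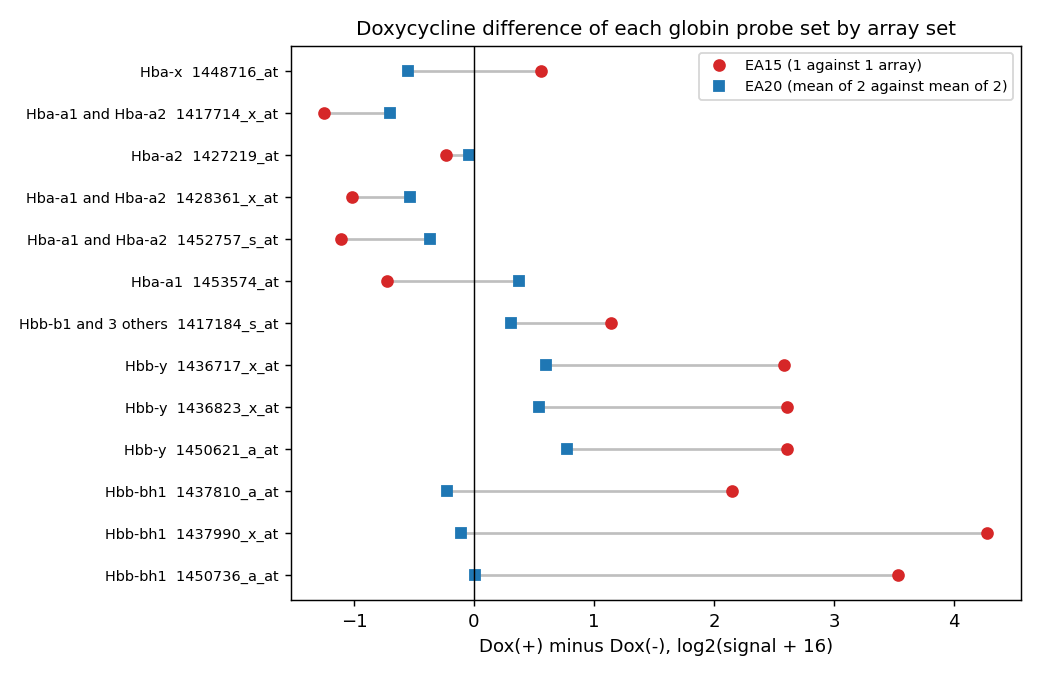
Difference between treated and untreated arrays for each of the 13 globin probe sets, in log2(signal + 16), within EA15 (1 against 1) and within EA20 (2 against 2). The Hbb-y and Hbb-bh1 probe sets lie between 2.15 and 4.28 in EA15 and between -0.23 and 0.77 in EA20, and the 3 bright adult alpha probe sets lie below 0 in both.

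Embryonic and adult globins were then compared as classes. Over the 7 embryonic probe sets the median log2 difference with the block was 1.23, and 6 of 7 were above 0; over the 6 adult probe sets it was -0.36, and 2 of 6 were above 0. The median over all probe sets was -0.01. In EA15 the medians were 2.60 for embryonic and -0.87 for adult probe sets, and in EA20 they were 0.011 and -0.20. The block absorbs a lone EA15 array, so leaving out either EA15 array gave the EA20 median of 0.011 again and is no separate check. The size of the embryonic median with the block thus rests on the EA15 pair. The adult median was -0.61 without the dim 1453574_at, and -0.047 over the 2 adult probe sets that list 1 gene.

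Neither class was uniform. In each class, the alpha-type and beta-type members had different values, a split that was noticed after the values were seen. With the block, all 7 beta-cluster probe sets were above 0, from 0.57 to 1.38 with a median of 1.23, and 5 of 6 alpha-cluster probe sets were below 0, with a median of -0.40. In EA20 alone, 5 of 7 beta-cluster probe sets were above 0, with a median of 0.31, and 5 of 6 alpha-cluster probe sets were below 0, with a median of -0.45. Among adult globins, the alpha probe set 1452757_s_at and the beta probe set 1417184_s_at thus had differences of opposite sign in both sets. Probe sets of 1 gene share transcripts, so the 13 probe sets are fewer than 13 separate measurements.

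Against the whole array, these counts read as follows. The groups of 3 treated and 3 untreated arrays did not overlap, with treated above, in 3 of the 13 globin probe sets, all for Hbb-y, and in 3.75% of all probe sets. Treated was below untreated without overlap in 0 of 13, against 3.99% of all. In EA20 alone, both treated arrays were above both untreated ones in 5 of 13, against 19.1% of all, and below them in 4 of 13, against 21.3%. The EA15 pair was at least 2-fold apart in 10 of 13, against 8.37% of all, and the EA20 means in 0 of 13, against 3.65%. The sign was the same in EA15 and EA20 for 9 of 13, against 53.2% of all. In the limma fit with the block, 39 probe sets or 0.0866% had an adjusted p under 0.05 (Benjamini-Hochberg, over 45037 probe sets), and 0.0289% were lower. No count of globin probe sets is given for this fit, because their doxycycline differences have no test here. Since these contrasts were used to choose the genes, nothing is read from the counts.

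The difference between the array sets was not used to choose the genes and could be tested, at equal doxycycline. In limma, 6 of the 13 globin probe sets differed between EA20 and EA15 with a Benjamini-Hochberg adjusted p under 0.05, against 24.8% of all probe sets. Of these, 5 were higher in EA20, against 13.4% of all, and 1 was lower, against 11.4%. All 5 that were higher were in the alpha cluster, and the 1 that was lower was the adult beta probe set. Apart from the Hba-x probe set, those that were higher list adult alpha genes, whose transcripts are near-identical. They are not separate measurements, so the count is not of independent genes. What separates the sets is not stated in the labels.

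Hba-x had the highest value. It was 18.2-fold higher in EA20 than in EA15 (95% interval 12.3 to 26.9; log2 difference 4.19, SE 0.25; limma adjusted p = 2.9e-06), and all 4 EA20 arrays stood above both EA15 arrays. Since Hba-x read only 9.10 and 20.9 in EA15, near the pseudocount of 16, the size depends on that pseudocount: the log2 difference was 5.18 with a pseudocount of 1 and 2.94 with 64. The adult alpha probe set 1417714_x_at was 5.94-fold higher (interval 4.95 to 7.13; limma adjusted p = 6.3e-07) and 1428361_x_at 5.78-fold higher (limma adjusted p = 6.4e-07). For 1452757_s_at the fold was 3.70 (interval 2.92 to 4.70; limma adjusted p = 1.5e-05). The Hba-a2 probe set 1427219_at was 1.42-fold higher (limma adjusted p = 0.0080), and this call was lost without the treated EA15 array (limma adjusted p = 0.12) and with no mean-variance trend (limma adjusted p = 0.064).

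Adult beta went the other way: 1417184_s_at was 2.21-fold higher in EA15 than in EA20 (log2 difference -1.14; limma adjusted p = 3.6e-04). For Hbb-y the EA20 minus EA15 differences were 0.65, 0.75 and 0.47, with limma adjusted p of 0.24, 0.18 and 0.38. The Hbb-bh1 probe sets 1437810_a_at, 1437990_x_at and 1450736_a_at gave 0.82, 1.51 and 1.82, with limma adjusted p of 0.26, 0.22 and 0.065. The last passed with a pseudocount of 1 (limma adjusted p = 0.037) and without dim probe sets (limma adjusted p = 0.024). These averages join unlike values. Among untreated arrays, EA20 was above EA15 by 1.38 to 1.78 log2 units for Hbb-y and by 2.01 to 3.71 for Hbb-bh1. Among treated arrays it differed by -0.45 to -0.28 for Hbb-y and by -0.68 to 0.06 for Hbb-bh1.

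The treated EA15 array decided part of this count. Without it, 11 of the 13 globin probe sets passed, with the 3 Hbb-y and 3 Hbb-bh1 probe sets added and 1427219_at lost. Quantile normalization and median centring turned no sign of a globin difference within EA15 or between sets. Within EA20 the one change was 1427219_at, whose difference was -0.04 as deposited and 0.003 with median centring. Median centring moved the median of all probe sets between the sets from 0.05 to -0.07.

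**Figure D3:**
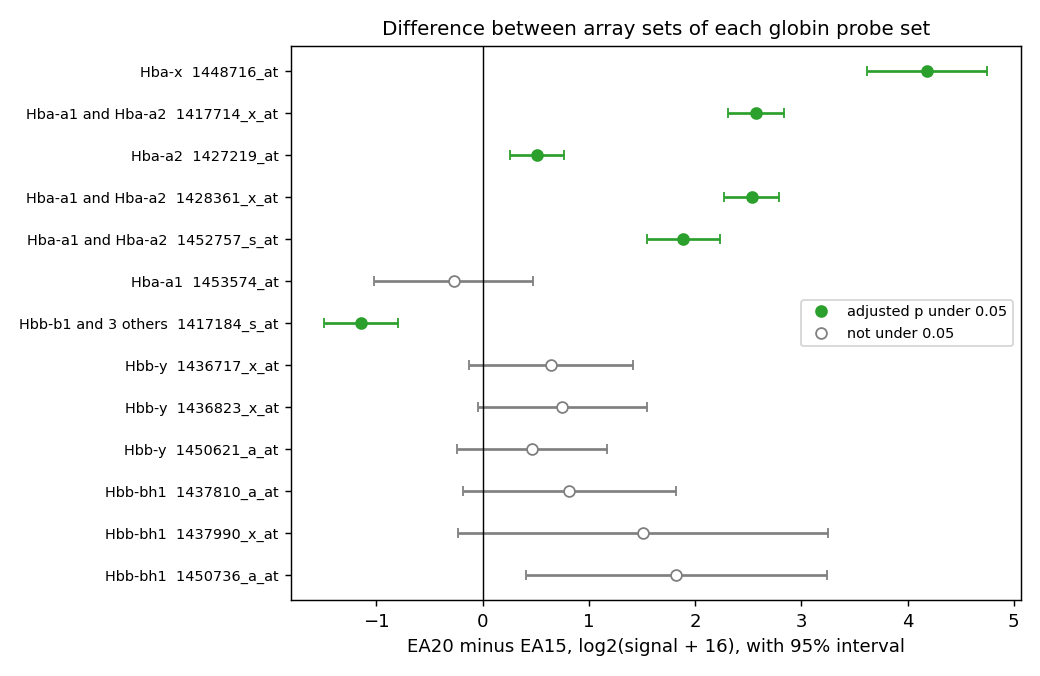
Difference between EA20 and EA15 at equal doxycycline for each of the 13 globin probe sets, in log2(signal + 16), with bars for 95% intervals from limma and filled points for adjusted p under 0.05. The 5 filled points to the right of 0 are in the alpha cluster, with Hba-x farthest at 4.19 (5.18 with a pseudocount of 1 and 2.94 with 64), and the filled point to the left is adult beta at -1.14.

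Other genes of the red cell pathway were followed in lists, at the gene level, where 27 of 18193 genes (0.148%) were higher with doxycycline and 9 (0.0495%) lower by limma with the block. Of 28 globin regulators, 1 was higher and 0 were lower, with a median log2 difference of -0.02 against 0.004 over all genes. The 1 was Gata1, the factor that activates most erythroid genes. It read 1702, 2642 and 2517 on the untreated arrays and 3059, 3609 and 3983 on the treated ones, each in the order of 1 EA15 and 2 EA20 arrays, and the groups did not overlap. Gata1 rose by 0.65 log2 units (SE 0.08; limma adjusted p = 0.020).

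The other regulators named by rule did not pass. Spi1, the myeloid factor PU.1 that opposes GATA1, differed by 0.29 (SE 0.07; limma adjusted p = 0.16). Zfpm1, the GATA1 cofactor FOG1, differed by -0.44 (SE 0.11; limma adjusted p = 0.20). For Klf1, the activator of adult beta globin, the value was 0.31 (SE 0.10; limma adjusted p = 0.28). Klf1 read 1574 and 2423 in EA15 and 3401 to 4108 in EA20.

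Of 20 measured genes of haem synthesis and iron handling, 1 was higher and 0 were lower, with a median of 0.03. Tfr2, a transferrin receptor that also binds the erythropoietin receptor, read 805, 2123 and 2051 on the untreated and 1065, 3220 and 3501 on the treated arrays. The treated array was above the untreated ones within each set, and Tfr2 rose by 0.59 (SE 0.08; limma adjusted p = 0.027). Tfrc, the main transferrin receptor, gave -0.17, the haem exporter Flvcr1 -0.20, and Eif2ak1, the kinase that halts globin translation when haem is short, 0.23, none past the threshold. Alas2, the erythroid enzyme that starts haem synthesis, read 3.57 to 6.58 on the 6 arrays, among the dimmest signals.

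The calls for Gata1 and Tfr2 depended on the array set and on single arrays. With no block, limma gave each an adjusted p of 1.0. Leaving out any one of the 4 EA20 arrays ended both calls, with limma adjusted p from 0.068 to 0.17 for Gata1 and from 0.14 to 0.20 for Tfr2. In EA20 alone both were called, with limma adjusted p of 0.038 and 0.021.

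None of 19 measured red cell markers passed in either direction, and their median was 0.02. The membrane gene Gypc gave 0.28 and the adhesion gene Icam4 -0.22. Rhag, a gas channel subunit of the Rh complex, gave 0.50 and the erythropoietin receptor gene Epor 0.25. The limma adjusted p of these 4 genes ran from 0.27 to 0.43. Of the 6 genes listed as neighbours of the alpha cluster, 0 passed, with a median of -0.04. The largest there by the rule were Il9r at 0.36, on signals of 2.42 to 13.4, the repair gene Mpg at -0.14, Rhbdf1 at -0.10 and the polymerase subunit gene Polr3k at -0.07. Polr3k is on the list but is not among the RefSeq neighbours named above, so the count and median include a gene not placed there. Nprl3, whose introns hold the alpha-globin enhancers, gave -0.02.

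Of 4 measured other globins, 0 passed, with a median of -0.12. Mb, muscle myoglobin, read 3.34 to 13.8, and Cygb and Ngb read at most 56.9. Hbb-b2, the partner of Hbb-b1, is named alone on 2 dim probe sets. At its brighter one, 1427865_at, it differed by 0.17 (SE 0.28; limma adjusted p = 0.88). The count above uses that probe set alone. The dimmer one, 1427866_x_at, gave 1.58 (SE 0.35), so the probe sets for Hbb-b2 do not give one value.

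**Figure D4:**
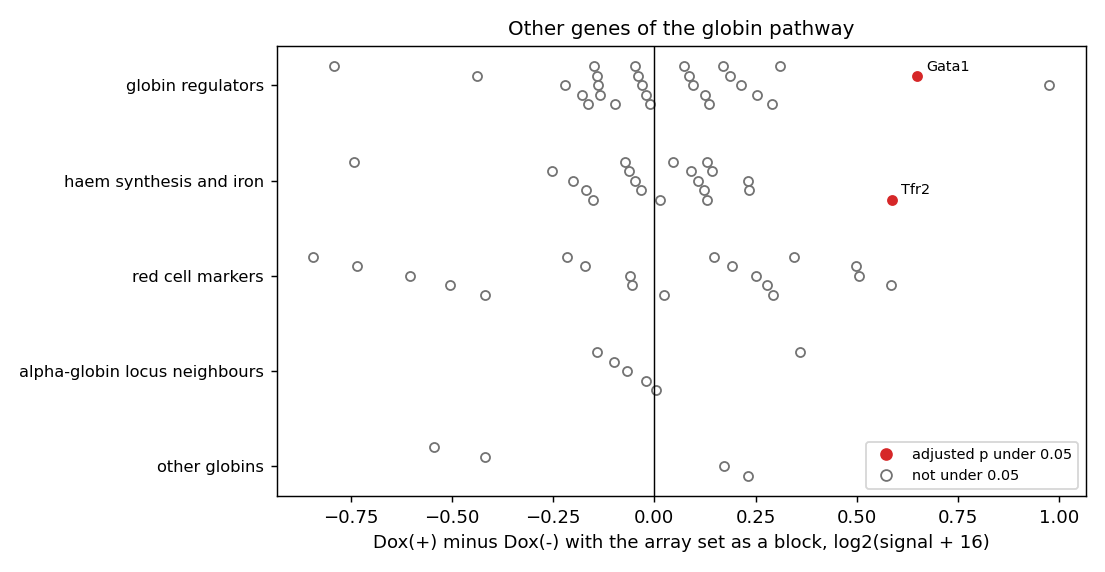
Difference with doxycycline for the measured genes of the red cell lists, in log2(signal + 16) from limma with the array set as a block, with 1 point per gene and filled points for adjusted p under 0.05. Gata1 at 0.65 and Tfr2 at 0.59 are the filled points, and the list medians lie between -0.12 and 0.03.

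Between the array sets the same lists moved in more places, against 17.3% of genes higher and 16.3% lower in EA20. Of the 28 regulators, 14 were higher in EA20 and 4 lower by limma. For haem and iron genes these counts were 3 and 6 of 20, and for red cell markers 2 and 2 of 19. For the genes listed as alpha-cluster neighbours they were 0 and 3 of 6, and for other globins 0 and 1 of 4. The 3 lower listed neighbours include Polr3k, at -0.43, which RefSeq does not order beside the cluster. Klf1 was higher in EA20 by 0.88, Tfr2 by 1.50 and Gata1 by 0.45, whereas Zfpm1 was lower by 0.72 and Rhag by 1.28. Nprl3, beside Hba-x, was lower in EA20 by 0.76, where the alpha genes were higher.

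Markers of other cells were read beside the globins. Of 7 erythroid markers, 5 were measured, and 2, Klf1 and Epor, were higher in EA20. Their summed signal was 2002 to 4129 on the untreated and 2966 to 4936 on the treated arrays, and 428 to 853 over all arrays without Klf1. Slc4a1, the red cell anion exchanger, read 2.24 to 36.1, and Alas2 read 3.57 to 6.58. The 5 macrophage markers, listed because WEHI-3 supernatant was used, summed to 1375 to 1562 on the untreated and 1280 to 1713 on the treated arrays. Of them, Adgre1 alone read 712 to 1166, and whether they bear on the supernatant was not tested. Between the array sets, 2 of these 5 were higher and 1 lower in EA20 by limma, and of the 10 measured Ba/F3 markers 5 were higher and 0 lower. Over all genes, 17.3% were higher and 16.3% lower in EA20, and lists this short give little against those shares. The markers that were higher include the macrophage receptor gene Csf1r by 1.40 and, among Ba/F3 markers, Csf2rb by 1.26 and Ptprc by 1.11. The part of these lists in the globin values was not tested.

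Genes whose signal moved most like the brightest globins over the 6 arrays were named by the root mean square difference of centred log2 signals among 16316 genes. Centred on all arrays, the nearest to the alpha probe set 1452757_s_at were Tgm2 at 0.099, Morrbid at 0.13, Igf1r at 0.16, Tcfl5 at 0.18 and Gadd45a at 0.19, where the probe set itself had an SD of 0.96. Centred within each array set they were Rgl1 at 0.056, Tgm2 at 0.058, Aqp4 at 0.062, Tanc2 at 0.069 and Agap2 at 0.073, against an SD of 0.36. Tgm2, a transglutaminase, was the one gene on both lists. It read 11422 without and 5735 with doxycycline in EA15, and 30408 and 28151 without and 23060 and 25637 with doxycycline in EA20.

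For the adult beta probe set 1417184_s_at, the nearest over all arrays were Spsb4 at 0.15, Rhag at 0.16, Pdzrn4 at 0.19, Scarf1 at 0.20 and Arid5b at 0.20, against an SD of 0.64. Rhag, a red cell gene, read 884 without and 1768 with doxycycline in EA15, and 388 and 551 without and 567 and 543 with doxycycline in EA20. The treated EA15 array was highest for both Rhag and adult beta. Within sets the nearest were Krt2 at 0.045, Pgbd1 at 0.054, Gip at 0.072, Syngr4 at 0.075 and Clec4a3 at 0.075, against an SD of 0.35, and all 5 were dim, at most 109. Dim genes were also on the other lists. Over all arrays, Spsb4, Pdzrn4 and Scarf1 on the beta list read at most 74.1, and Tcfl5 on the alpha list read 1.82 to 126. Within sets, Aqp4, Tanc2 and Agap2 on the alpha list read at most 93.0. These matches over 6 arrays that share 2 array sets are a description only.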

How the data were processed

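Total RNA of 6 samples was measured on Affymetrix Mouse Genome 430 arrays. The deposited values are intensities, on a linear scale, for every probe set. The submitters' processing notes name Affymetrix Expression Console, and which algorithm or version was run is not given in the sources used here. The values have, on each array, a mean of 500 once 2% is trimmed at each end; scaling of this kind hides any difference in total mRNA.

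Of 45101 probe sets, 64 controls were left out. The platform annotation gave 34945 of the others 1 symbol, 932 several and 9160 none. Signals were taken as log2(signal + 16) with no filter. Models were fitted in R 4.3.3 with limma 3.58.1 (lmFit, then eBayes with trend), taking doxycycline and the array set as terms, two-sided, with Benjamini-Hochberg adjustment and a threshold of 0.05. The same fit over 18193 genes used the brightest probe set of each gene. It was checked on simulated data. Promoter windows were searched with Python 3.11.15, and windows were aligned with Biopython 1.88.

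The globins and the lists were chosen with earlier results of these data known. Named genes were the globin probe sets, up to 4 genes per list by the smallest p with Gata1, Klf1, Alas2 and Ahsp (Ahsp has no value here), and the 5 genes nearest to the brightest alpha and beta probe sets; Nprl3 was added after values were seen. Alternatives were no block, EA20 alone, quantile normalization, median centring, pseudocounts of 1 and 64, leaving out probe sets under the 40th percentile of mean signal, no trend, a robust prior, the mean of a gene's probe sets, probe sets with 1 symbol, and leaving out each array. The number of arrays limits the precision.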

Additional observations from a re-analysis of the deposited data

Results flagged for a closer look

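For 2 globin probe sets the EA15 pair and the EA20 arrays went opposite ways with doxycycline, with each treated array of a set on the same side of that set's untreated arrays. For Hba-x (1448716_at), the log2 difference was 0.56 in EA15 and -0.55 in EA20. For the Hba-a1 probe set 1453574_at it was -0.72 in EA15 and 0.38 in EA20, on signals of 2.92 to 19.2. The difference between the sets was not tested in either case, since EA15 has 1 array of each kind, and in EA15 both probe sets were dim.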

How the results depend on the processing

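The globin differences with doxycycline have no test, so only their values are compared. The embryonic median of 1.23 was 0.011 in EA20 alone and ran from 0.011 to 1.53 when 1 array was left out. The 0.011 there is the EA20 value again, as the block absorbs a lone EA15 array. The adult median of -0.36 was -0.61 without dim probe sets and -0.047 over probe sets with 1 symbol. The 39 probe sets called with doxycycline became 0 with no block, 0 with no trend, 62 with a pseudocount of 1, 7 with 64 and 110 without dim probe sets, and 0 to 37 when 1 array was left out. The 2 pathway genes called, Gata1 and Tfr2, became 0 with no block, 0 with no trend, 1 with a pseudocount of 64 and 1 with the mean of a gene's probe sets, and 0 to 2 when 1 array was left out. Between the array sets, the 11176 probe sets called became 7392 with no trend. The 6 globin probe sets became 5 with no trend, with 1427219_at lost, and 6 to 11 when 1 array was left out, with 11 without the treated EA15 array. The Hbb-y probe set 1450621_a_at went from 0.47 to -0.45 (limma adjusted p = 0.026) without the untreated EA15 array and to 1.38 without the treated one. Beyond the smaller number of arrays or probe sets in a fit, the cause of these shifts was not tested. No paired analysis was possible because the labels number no replicates (numbers were given here in sample order) and only the EA15 arrays, 1 of each kind, share a code; the array set was the block. A dim probe set, such as that for Hba-a1, gives little more than a bound.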

Other observations

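Another probe set named for Hbb-b2 alone, 1427866_x_at, lies outside the globins chosen and was singled out after its values were seen. It read 43.0 without and 165 with doxycycline in EA15, and 5.08 and 17.4 without and 63.96 and 59.91 with doxycycline in EA20. In both sets the treated arrays were above the untreated ones, and over all 6 arrays the groups did not overlap. The log2 difference with the block was 1.58 (SE 0.35), whereas the brighter Hbb-b2 probe set 1427865_at gave 0.17 (SE 0.28).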
